A study of Mus musculus with 12 samples.

Results

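The albumin gene family comprises Alb, Afm, Gc and Afp, and all 4 genes were taken by symbol from the 23420 genes counted in each of 12 mouse liver RNA-seq libraries. The livers came from C57BL/6 mice in which both alleles of Gdown1 carry loxP sites (Gdown1 flox/flox), a state shared by every group. Gdown1, the product of Polr2m, is a subunit bound to a part of the RNA polymerase II pool. In the first comparison, KO livers carry Alb-Cre, a Cre recombinase driven by the albumin promoter and so active in hepatocytes, and FF livers carry no Cre; both were taken at 7 weeks. In the second comparison, DKO livers carry Alb-Cre on a p53-/- background and p53KO livers are p53-/- without Cre; both were taken at 8 weeks. In the tamoxifen comparison, DKO TAM livers are p53-/- with Alb-CreERT2, a Cre made active by tamoxifen, and p53KO TAM livers are p53-/- with no Cre named in their genotype label; both were taken 24 hours after tamoxifen, and their ages are not given in the sources used here. Each group has 2 libraries, named by the numbers in their titles, which for DKO are 2 and 3. Since the deleted groups are also the ones with Cre, the effects of Cre and of Gdown1 loss cannot be told apart, and whether the Alb-CreERT2 allele lies within the endogenous Alb gene is not given in the sources used here.

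The family arose by duplication, and its members encode related secreted plasma proteins made mainly by hepatocytes. Albumin (Alb) holds the osmotic pressure of plasma and carries fatty acids, bilirubin and drugs; afamin (Afm) carries vitamin E and lipid-modified Wnt proteins; the vitamin D-binding protein (Gc) carries vitamin D metabolites and scavenges actin. Alpha-fetoprotein (Afp) is the main plasma protein of the fetus; its gene is shut down in the liver after birth, while Alb stays on, and it is expressed again in regenerating liver and in hepatocellular carcinoma.

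Alb, Afp and Afm lie head to tail on the plus strand of chromosome 5 in build mm10 (GRCm38): Alb at chr5:90460889-90476603, Afp at chr5:90490714-90508907 and Afm at chr5:90518949-90553544. Afp starts 14.1 kb after the end of Alb, Afm starts 10 kb after the end of Afp, and no other gene of the files lies in these gaps. Gc lies on the minus strand at chr5:89417511-89457898, 1003 kb from Alb with 6 genes between.

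The promoters of the 4 genes are shown because liver transcription of the family is classically tied to the hepatocyte factor HNF1, whose consensus of 13 bases is GTTAAT, then any base (N), then the reverse complement of GTTAAT. Each line gives the 250 bases before the annotated start, 5′ to 3′ on the strand of the gene, from the RefSeq promoter table of build GRCm38.p6, which held all 4 members. Capitals mark the stretch nearest to that consensus. The Alb window is chr5:90460620-90460869 and ends before position 90460889, where the files start the gene, so the positions given for Alb count from the RefSeq start and not from that of the files; the Afp window is chr5:90490464-90490713, the Afm window is chr5:90518699-90518948, and the Gc window is chr5:89457899-89458148 on the minus strand.
Alb: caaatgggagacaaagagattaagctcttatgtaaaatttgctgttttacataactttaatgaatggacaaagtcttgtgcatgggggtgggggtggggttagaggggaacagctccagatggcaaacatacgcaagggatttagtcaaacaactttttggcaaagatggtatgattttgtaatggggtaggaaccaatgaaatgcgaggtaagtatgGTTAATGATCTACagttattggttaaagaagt
Afp: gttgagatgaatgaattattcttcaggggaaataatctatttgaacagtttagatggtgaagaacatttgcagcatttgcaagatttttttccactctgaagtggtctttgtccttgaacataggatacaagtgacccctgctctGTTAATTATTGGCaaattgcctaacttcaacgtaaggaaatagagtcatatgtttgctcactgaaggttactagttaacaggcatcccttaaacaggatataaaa
Afm: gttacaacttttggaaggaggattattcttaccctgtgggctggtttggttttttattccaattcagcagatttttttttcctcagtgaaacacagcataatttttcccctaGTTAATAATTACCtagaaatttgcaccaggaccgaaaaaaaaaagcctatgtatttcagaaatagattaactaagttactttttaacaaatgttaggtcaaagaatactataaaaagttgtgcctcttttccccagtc
Gc: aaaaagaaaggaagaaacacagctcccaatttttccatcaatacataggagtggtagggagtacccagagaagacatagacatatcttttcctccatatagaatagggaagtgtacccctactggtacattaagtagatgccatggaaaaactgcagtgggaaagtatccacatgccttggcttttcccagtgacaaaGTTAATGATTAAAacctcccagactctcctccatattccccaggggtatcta

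The consensus reads the same on both strands, so a match has no direction; read on the strand of the gene, the nearest stretch began with GTTAAT in all 4 promoters. In Afm (GTTAATAATTACC, positions -138 to -126, counted back from -1 just before the start) and in Gc (GTTAATGATTAAA, -52 to -40) it differed from the consensus at 1 base, and in Alb (GTTAATGATCTAC, -32 to -20) and Afp (GTTAATTATTGGC, -105 to -93) at 2 bases. Of 32851 promoters of the same length in the table, 62 (0.189%) held a stretch within 1 mismatch and 407 (1.24%) one within 2. The shorter GTTAAT was present in 6.43% of these promoters on either strand. CCAAT was present in all 4 members and in 33.9% of all promoters; in Afp its match, on the minus strand at -98 to -94, lies inside the capitals. TATAAA was present in Afm at -30 to -25 and in Afp at -7 to -2, and in 12.4% of all promoters. These matches are letters in a window and no measure of binding.

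Whole-series facts that bear on the family are few. Library totals were 4939408 to 8776369 counts, so Alb rests on 131828 to 496741 counts in a library, Gc on 27748 to 52877, Afm on up to 2949 and Afp on 15 to 808. Polr2m stood at 64.7 and 59.4 CPM (counts per 1e6 of library size) in KO livers, against 100.3 and 96.7 CPM in FF livers (log2 fold change -0.67 ± 0.13, edgeR adjusted p = 0.00243). It stood at 58.1 and 60.0 CPM in DKO livers, against 89.1 and 102.7 CPM in p53KO livers (-0.70 ± 0.13, edgeR adjusted p = 0.000236), a direction that turns to 0.068 when libraries are scaled by their totals alone and to 0.016 by totals without Alb. At 65.9 and 54.6 CPM in DKO TAM livers, against 75.9 and 78.7 CPM in p53KO TAM livers, it did not pass (-0.36 ± 0.13, edgeR adjusted p = 0.0627), although it did without DKO TAM replicate 1 (-0.50, edgeR adjusted p = 0.0399). Counts over a whole gene do not show which exons were deleted. Trp53, the p53 gene, was at 2.93 ± 0.20 CPM in p53KO livers, against 10.5 ± 3.65 CPM in FF livers (SD, n = 2 each; edgeR adjusted p = 0.00873). In the other groups labelled p53-/- it was at 8.39 and 8.13 CPM in DKO livers, 8.96 and 10.01 CPM in DKO TAM livers and 3.79 and 3.97 CPM in p53KO TAM livers, so the DKO and DKO TAM libraries lay above the lower FF library, at 7.945 CPM. The level of Trp53 RNA thus does not check the p53 label of those groups. In the tests below, a gene is called changed at an edgeR adjusted p under 0.05 over the 13693 genes tested, CPM are scaled by trimmed mean of M values (TMM), and errors of log2 fold changes are standard errors. The labels do not say that libraries of a group come from separate animals, although most titles carry different numbers, so the p-values reflect only how far these libraries spread, which may be technical.

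Alb was lower in all 3 comparisons after loss of Gdown1. It stood at 28610 and 32810 CPM in KO livers, against 66290 and 57760 CPM in FF livers. In DKO livers it stood at 15740 and 19210 CPM, against 71560 and 71740 CPM in p53KO livers. It stood at 17620 and 16500 CPM in DKO TAM livers, against 72370 and 72970 CPM in p53KO TAM livers. The groups overlapped in none of the comparisons, and every deleted library was below every control library of the series. The drop was 2.02-fold in KO livers (log2 fold change -1.01 ± 0.17, edgeR adjusted p = 0.000931), 4.10-fold in DKO livers (-2.04 ± 0.18, edgeR adjusted p = 1.24e-07) and 4.26-fold in DKO TAM livers (-2.09 ± 0.18, edgeR adjusted p = 1.12e-06). Genes called lower made up 7.88% of all genes tested in KO livers, 25.7% in DKO livers and 10.1% in DKO TAM livers. In whole-tissue RNA, fewer hepatocytes and less of a transcript per hepatocyte cannot be told apart.

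Read as a share of all counts, which uses no scaling factor, Alb took 3.07% and 3.33% of counts in KO livers, against 5.94% and 4.93% in FF livers. In DKO livers it took 2.21% and 2.71%, against 5.90% and 5.95% in p53KO livers, and in DKO TAM livers 1.93% and 1.80%, against 6.27% and 6.19% in p53KO TAM livers. The share was 1.70-fold, 2.41-fold and 3.35-fold lower in KO, DKO and DKO TAM livers. Per kilobase of exon Alb remained the most abundant transcript in 11 of the 12 libraries and was second in 1 DKO TAM library. No mitochondrial gene was among the genes counted, so ranks and shares of counts leave mitochondrial transcripts out.

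**Figure D1:**
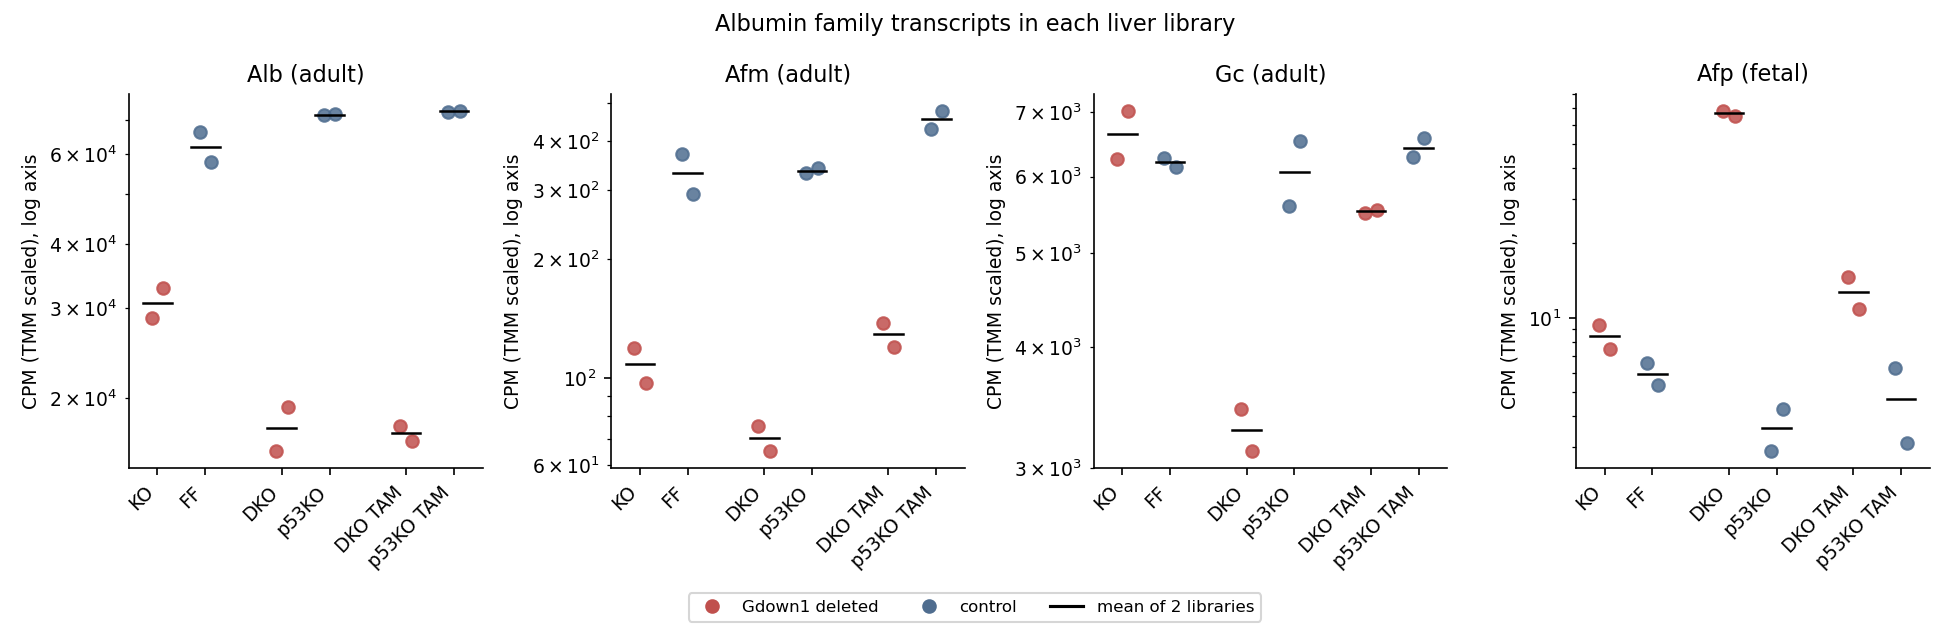
TMM-scaled CPM of Alb, Afm, Gc and Afp in each of the 12 libraries, on log axes whose range differs between panels; points are libraries and lines are means of 2. Alb and Afm are lower in every Gdown1-deleted library than in every control library, Gc is lowest in DKO livers, and Afp is highest in DKO livers at 65.2 and 68.5 CPM.

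Afm, the neighbour of Afp and the vitamin E carrier of the family, was lower in the same 3 comparisons. It stood at 119.3 and 96.9 CPM in KO livers, against 369.9 and 293.4 CPM in FF livers. In DKO livers it stood at 75.3 and 65.1 CPM, against 332.4 and 340.8 CPM in p53KO livers. It stood at 138.0 and 119.8 CPM in DKO TAM livers, against 429.6 and 478.5 CPM in p53KO TAM livers. Again no deleted library reached a control library. The decrease was 3.07-fold in KO livers (-1.62 ± 0.15, edgeR adjusted p = 3.18e-06), 4.79-fold in DKO livers (-2.26 ± 0.15, edgeR adjusted p = 8.5e-09) and 3.52-fold in DKO TAM livers (-1.82 ± 0.15, edgeR adjusted p = 9.11e-07). Afm ranked 216 to 416 by counts per kilobase in the control libraries and 750 to 1461 in the deleted ones.

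Gc, the vitamin D-binding protein, moved less than Alb and Afm, and its direction rested on the scale. It stood at 6263 and 7024 CPM in KO livers, against 6270 and 6147 CPM in FF livers, and these ranges overlapped. In DKO livers it stood at 3449 and 3124 CPM, against 5603 and 6529 CPM in p53KO livers, with no overlap. It stood at 5508 and 5547 CPM in DKO TAM livers, against 6286 and 6573 CPM in p53KO TAM livers, also with no overlap. The test was passed in DKO livers alone (-0.88 ± 0.15, edgeR adjusted p = 0.000136), with values of 0.10 ± 0.15 in KO livers (edgeR adjusted p = 0.721) and -0.22 ± 0.15 in DKO TAM livers (edgeR adjusted p = 0.345). With library totals alone the DKO value was -0.12 (edgeR adjusted p = 0.463) and the DKO TAM value turned to 0.13 (edgeR adjusted p = 0.493). As a share of all counts Gc took 0.484% and 0.441% in DKO livers, against 0.462% and 0.542% in p53KO livers, which overlap. Its share was higher without overlap in KO livers, at 0.671% and 0.712%, against 0.562% and 0.525% in FF livers. The same held in DKO TAM livers, at 0.6025% and 0.6049%, against 0.5448% and 0.5579% in p53KO TAM livers. By counts per kilobase it ranked 5 to 8 in the deleted libraries and 13 to 19 in the control libraries.

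Afp, the fetal member, was higher in DKO and DKO TAM livers. It had 808 and 762 counts in DKO livers, against 17 and 20 counts in p53KO livers, which is 68.5 and 65.2 CPM, against 2.90 and 4.29 CPM. In DKO TAM livers it had 140 and 87 counts (14.6 and 10.9 CPM), against 43 and 15 counts (6.26 and 3.13 CPM) in p53KO TAM livers. In KO livers it had 55 and 39 counts (9.32 and 7.50 CPM), against 29 and 31 counts (6.55 and 5.35 CPM) in FF livers. The groups overlapped in no comparison, and the DKO libraries stood above all others. The rise was 18.8-fold in DKO livers (4.24 ± 0.26, edgeR adjusted p = 2.64e-09) and 2.61-fold in DKO TAM livers (1.38 ± 0.27, edgeR adjusted p = 0.00185), while the KO value did not pass (0.52 ± 0.29, edgeR adjusted p = 0.264). Genes called higher made up 6.92% of genes tested in KO livers, 25.7% in DKO livers and 8.61% in DKO TAM livers. The DKO TAM value was 2.03 without p53KO TAM replicate 1 and 1.03 without p53KO TAM replicate 2.

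Counting error is large for Afp in the controls. Its share of counts was 0.000266% in p53KO TAM replicate 2 (95% Wilson interval 0.000161% to 0.000439%, from 15 counts) and 0.000543% in p53KO TAM replicate 1 (0.000403% to 0.000731%, from 43 counts). In DKO livers the share was 0.00961% (0.00897% to 0.0103%) and 0.00920% (0.00857% to 0.00987%). These intervals cover counting error only, since reads are not independent molecules.

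Compared per kilobase of exon, the fetal member reached the level of an adult one in DKO livers. Afp averaged 32.1 CPM per kb and Afm 34.7 CPM per kb there, against 1.72 and 166.5 CPM per kb in p53KO livers. The 2 genes had 808 and 888 counts in DKO replicate 2 and 762 and 761 counts in DKO replicate 3, for Afp and Afm in that order. In KO livers Afp averaged 4.03 CPM per kb and Afm 53.5 CPM per kb, against 2.85 and 164.0 CPM per kb in FF livers. In DKO TAM livers Afp averaged 6.11 CPM per kb and Afm 63.8 CPM per kb, against 2.25 and 224.6 CPM per kb in p53KO TAM livers. Alb remained far above both: 260 Alb counts stood beside each Afp count in DKO livers, against 19770 in p53KO livers.

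**Figure D2:**
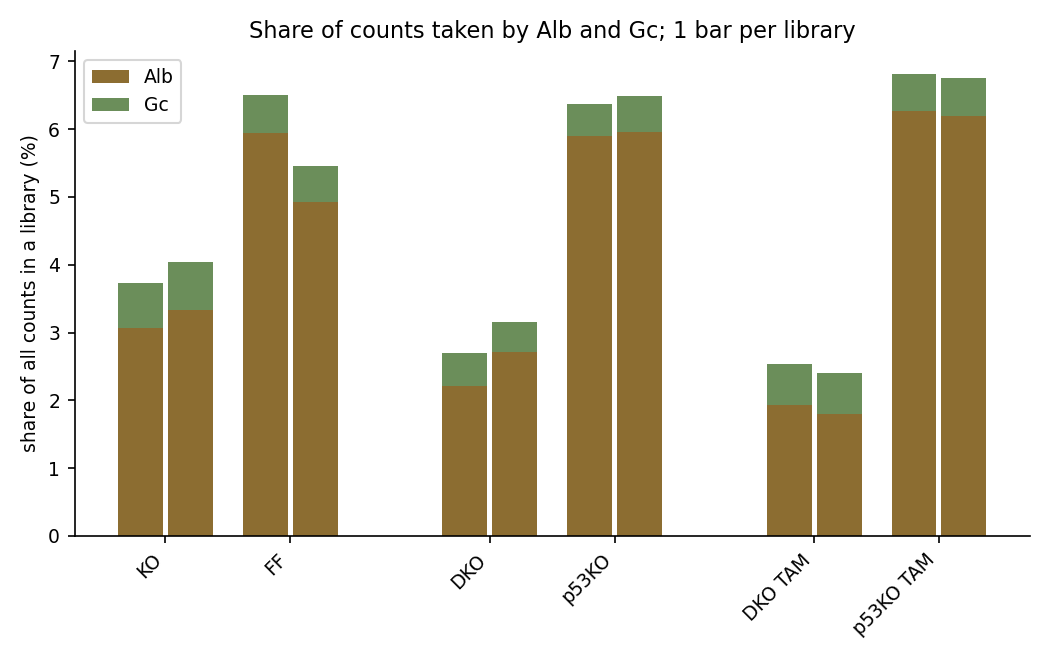
Share of all counts in a library (%, y axis) taken by Alb and, stacked on it, Gc, with 1 bar per library and 2 libraries per group; Afm and Afp are too small to draw. The Alb part is 1.80% to 3.33% in the deleted libraries and 4.93% to 6.27% in the controls, while the Gc part stays between 0.441% and 0.712%.

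The family as a whole took 3.75% and 4.05% of all counts in KO livers, against 6.53% and 5.48% in FF livers. It took 2.71% and 3.17% in DKO livers, against 6.39% and 6.52% in p53KO livers, and 2.55% and 2.42% in DKO TAM livers, against 6.85% and 6.79% in p53KO TAM livers. The mean share of the family was 1.54-fold, 2.20-fold and 2.75-fold lower in KO, DKO and DKO TAM livers. Its makeup changed too. Alb made up 81.9% ± 0.29 of family counts in KO livers and 90.4% ± 0.66 in FF livers (SD, n = 2 each), 83.5% ± 2.90 in DKO livers and 91.8% ± 0.77 in p53KO livers, and 75.0% ± 0.91 in DKO TAM livers and 91.3% ± 0.22 in p53KO TAM livers. Gc filled most of the difference, at 17.7% ± 0.22 in KO livers and 9.09% ± 0.69 in FF livers, 15.9% ± 2.78 in DKO livers and 7.77% ± 0.76 in p53KO livers, and 24.3% ± 0.95 in DKO TAM livers and 8.08% ± 0.19 in p53KO TAM livers.

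Ratios between members within a library need no scaling between libraries. The log2 ratio of Afp to Alb was higher by 1.503 in KO than in FF livers, by 6.25 in DKO than in p53KO livers and by 3.58 in DKO TAM than in p53KO TAM livers. The mean of 3.78 was tested by an exact two-sided permutation of the labels within the 3 comparisons, which has 216 arrangements and can give no p below 0.009259. This exact permutation test gave p = 0.009259, and 0.01235 after adjustment over the 4 ratios, which was also the adjusted p of the 2 ratios that follow. Gc over Alb was higher by 1.11, 1.16 and 1.87 in KO, DKO and DKO TAM livers, a mean of 1.38. Afm over Gc was lower, with differences of -1.71, -1.38 and -1.60 and a mean of -1.56. The deleted and control libraries did not overlap in any comparison for these 3 ratios. Since the members were chosen with earlier results of these data known, the permutation p-values of the ratios are descriptive. The ratios are also not separate tests, because Gc over Alb and Afm over Alb together fix Afm over Gc.

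Afm over Alb was the ratio that did not pass, with differences of -0.60 in KO, -0.22 in DKO and 0.27 in DKO TAM livers and a mean of -0.18 (exact permutation p = 0.3241). The groups did not overlap in KO and DKO TAM livers, in opposite directions, and overlapped in DKO livers. A ratio of each member to the summed counts of 30 other abundant plasma protein genes was added after the counts were seen. On this scale the mean difference was -0.87 for Alb, -1.05 for Afm, 0.52 for Gc and 2.91 for Afp, each with the smallest exact permutation p of 0.009259. Since the ratio was chosen with the counts known, these p-values are descriptive only. Relative to the summed counts of the list, Alb and Afm fell and Gc rose. Such a sum is weighted to its most abundant genes.

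**Figure D3:**
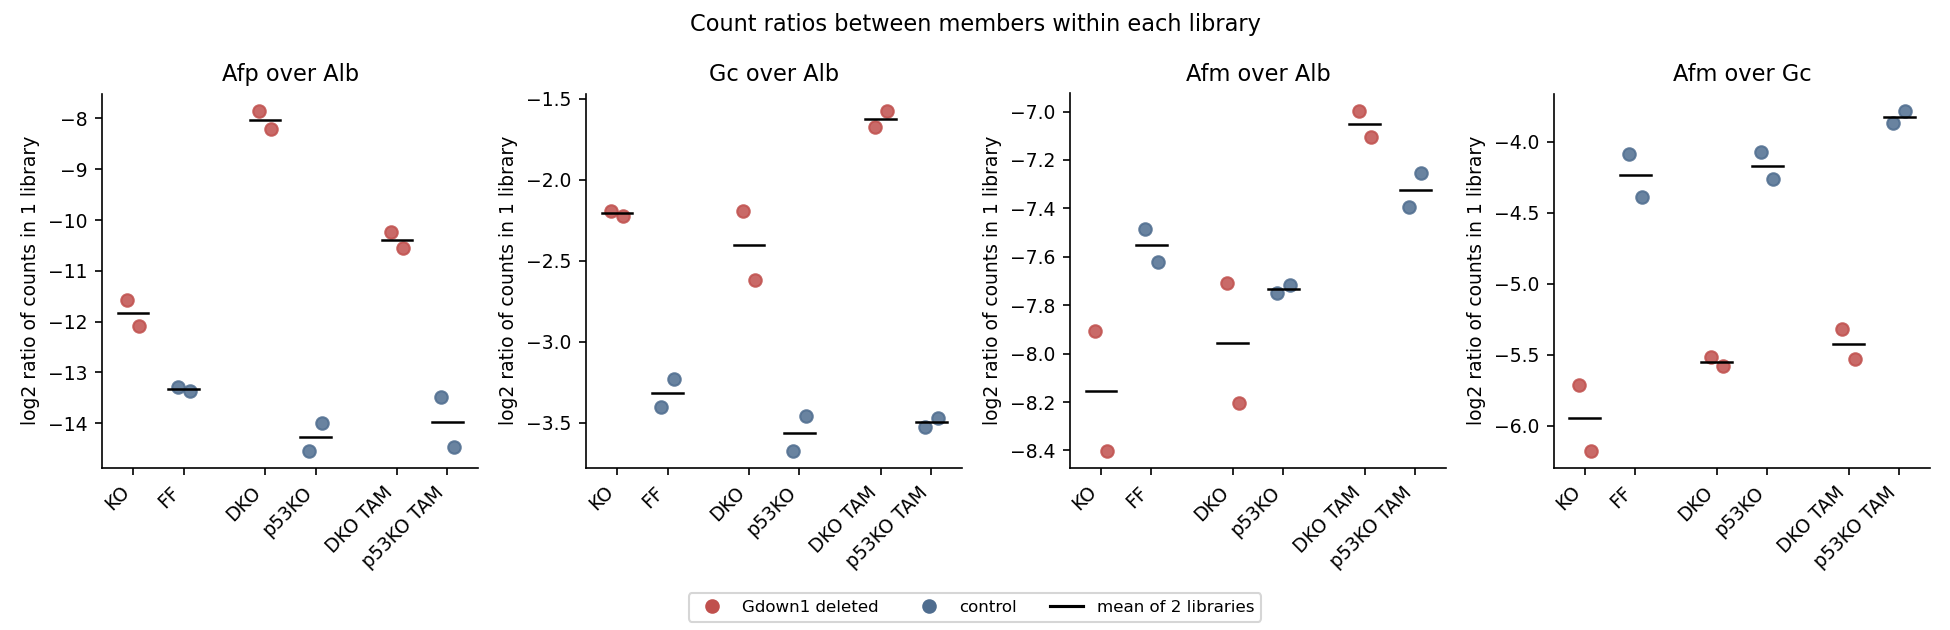
Log2 ratio of counts between pairs of members within each library (y axes, 0.5 counts added, ranges differ), with deleted groups left of their controls; points are libraries and lines are means of 2. Afp over Alb and Gc over Alb are higher in each deleted group than in its control, Afm over Gc is lower, and Afm over Alb has no common direction.

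Whether the changes differed in size between comparisons was tested with interaction terms; DKO and KO livers have separate controls. The change in DKO livers was larger than in KO livers for Afp (difference of log2 fold changes 3.72 ± 0.41, edgeR adjusted p = 2.46e-05), Alb (-1.02 ± 0.24, 0.00683), Gc (-0.98 ± 0.21, 0.00377) and Afm (-0.65 ± 0.21, 0.0367). This test called 22.7% of all genes tested. With library totals alone only the Afp difference passed, and the Afm difference also failed under upper quartile scaling (-0.45, edgeR adjusted p = 0.139). The Afm call was also lost without p53KO replicate 1 (-0.67), p53KO replicate 2 (-0.64), DKO replicate 3 (-0.55), FF replicate 2 (-0.50) or KO replicate 1 (-0.50). These experiments differ in age and p53 status at once.

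Set against DKO TAM livers, the change in DKO livers was larger for Afp (2.85 ± 0.40, edgeR adjusted p = 9.42e-05) and for Gc (-0.67 ± 0.21, edgeR adjusted p = 0.0283), a test that called 27.6% of all genes. The Gc call was lost with library totals (-0.25, edgeR adjusted p = 0.370), with upper quartile scaling (-0.48, edgeR adjusted p = 0.108) with the block on replicate numbers (-0.66, edgeR adjusted p = 0.0589), and without p53KO replicate 2 (-0.57), DKO replicate 3 (-0.60), p53KO TAM replicate 1 (-0.65) or p53KO TAM replicate 2 (-0.71). The Alb difference was 0.055 ± 0.24 (edgeR adjusted p = 0.894) and the Afm difference -0.45 ± 0.21 (edgeR adjusted p = 0.123). The CPM of Alb overlapped between DKO TAM and DKO livers, whereas its shares of counts, given above, did not and were lower in DKO TAM livers. Relative to the summed counts of the 30 other plasma protein genes the log2 change of Alb was -1.46 in DKO TAM and -0.62 in DKO livers, a difference that was not tested.

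**Figure D4:**
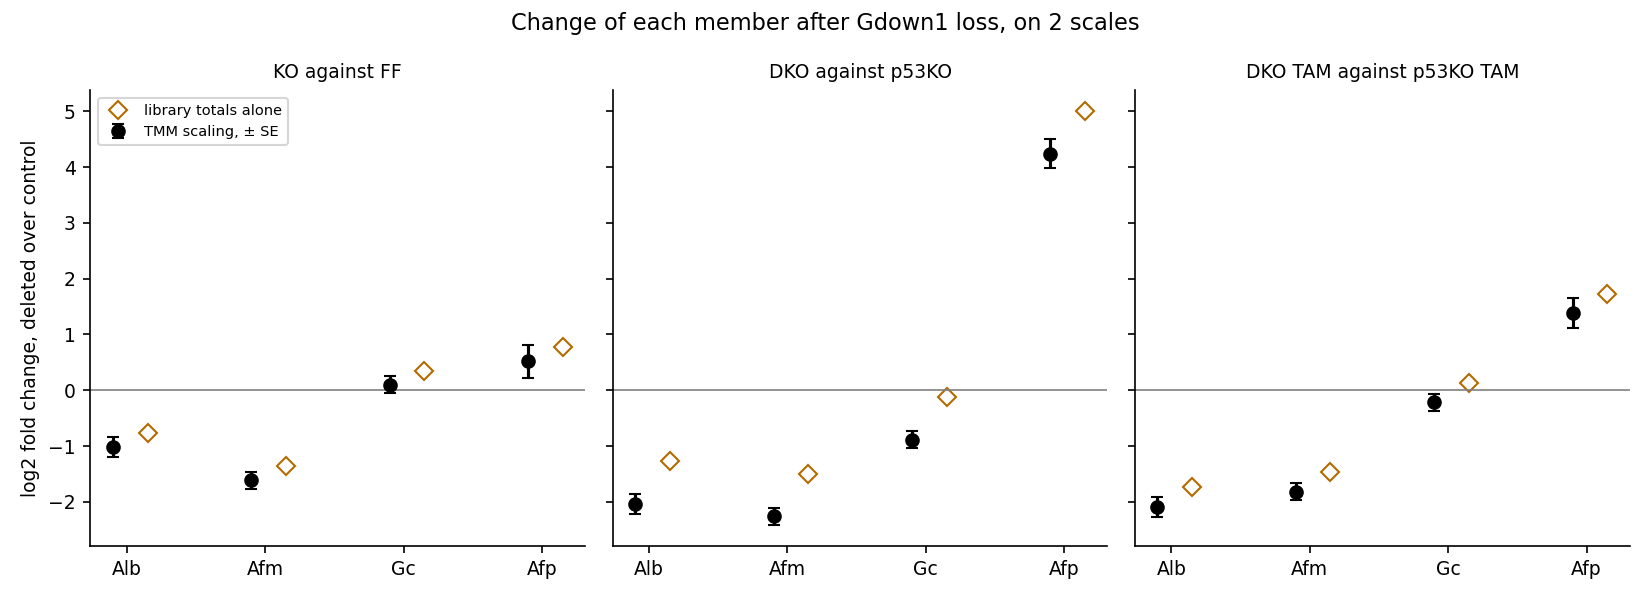
Log2 fold change (y axis) of each member in the 3 comparisons, deleted over control, from edgeR with TMM scaling (black, bars are standard errors) and with library totals alone (open diamonds). Alb and Afm are below 0 and Afp is above 0 on both scales; Gc in DKO TAM livers is -0.22 with TMM and 0.13 with totals.

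In order of CPM, Alb ran DKO TAM, DKO, KO, FF, p53KO and p53KO TAM, from low to high, with overlap of libraries between the first pair. Afm ran DKO, KO, DKO TAM, FF, p53KO and p53KO TAM, with FF overlapping p53KO. KO and DKO TAM did not quite meet, at 119.3 CPM in the higher KO library and 119.8 CPM in the lower DKO TAM library. Gc ran DKO, DKO TAM, p53KO, FF, p53KO TAM and KO. Its p53KO libraries overlapped with those of FF, p53KO TAM and KO, and KO also overlapped with FF and p53KO TAM. The higher DKO TAM library, at 5547 CPM, was just under the lower p53KO library, at 5603 CPM, and DKO lay well below. Afp ran p53KO, p53KO TAM, FF, KO, DKO TAM and DKO, with overlap of p53KO TAM with p53KO and with FF, none between p53KO and FF, and none between the deleted groups. Between the control groups p53KO and FF, which differ in p53 and in age, no member passed: the log2 fold change was 0.21 ± 0.17 for Alb (edgeR adjusted p = 0.702), -0.74 ± 0.34 for Afp (0.414), 0.022 ± 0.15 for Afm (0.980) and -0.034 ± 0.15 for Gc (0.964). This comparison shares the p53KO libraries with that of DKO, and it called 0.592% of genes higher and 0.270% lower.

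Transcription factors that act on Alb and Afp were counted as a list of 30 genes, all tested. In KO livers 1 was called higher and 9 lower (median log2 fold change -0.34, all genes 0.025), in DKO livers 2 higher and 19 lower (-0.62, all genes 0.009), and in DKO TAM livers 1 higher and 1 lower (-0.12, all genes 0.010). With library totals alone these splits became 2 and 5, 8 and 5, and 6 and 0, so the direction of the list in DKO and DKO TAM livers rests on the scale. The shares of all genes called, higher and lower, were 6.92% and 7.88% in KO, 25.7% and 25.7% in DKO, and 8.61% and 10.1% in DKO TAM livers. The 9 called lower in KO livers became 5 without FF replicate 1 and 6 without FF replicate 2, KO replicate 1 or KO replicate 2. In DKO livers 13 were called lower without p53KO replicate 2 and 14 without DKO replicate 3, and leaving out 1 library gave 0 to 3 higher and 0 to 2 lower in DKO TAM livers. Trp53 itself was the gene called higher in each comparison (0.93, 1.48 and 1.29, edgeR adjusted p = 0.013, 0.000501 and 0.00393), also on the p53-/- background, joined in DKO livers by Gata6, an endodermal GATA factor (1.49, edgeR adjusted p = 0.00037). The Trp53 call was lost in KO livers without FF replicate 2 (0.59) or KO replicate 2 (0.71), and in DKO TAM livers without p53KO TAM replicate 1 (1.25). Foxa1, a pioneer factor that opens liver enhancers, fell in KO livers (-0.90 ± 0.17, edgeR adjusted p = 0.00222) and in DKO livers (-1.54 ± 0.16, edgeR adjusted p = 8.82e-07). Cebpa, a factor of mature hepatocytes that acts on the Alb promoter, stood at 58.5 ± 14.6 CPM in DKO livers and 214.4 ± 23.9 CPM in p53KO livers (SD, n = 2 each; -1.88 ± 0.17, edgeR adjusted p = 2.72e-07). It was also called lower in KO livers (-0.55 ± 0.17, edgeR adjusted p = 0.0377). Nfix, a nuclear factor I protein, was at -0.65 ± 0.13 in KO livers (edgeR adjusted p = 0.00323) and -1.02 ± 0.13 in DKO livers (edgeR adjusted p = 6.58e-06). Rxra, the partner of many nuclear receptors, fell in KO livers (-0.69 ± 0.14, edgeR adjusted p = 0.00262) and in DKO livers (-0.86 ± 0.135, edgeR adjusted p = 6.01e-05). Its mean share of all counts was 0.0360% in DKO and 0.0385% in p53KO livers. Nr5a2, a nuclear receptor, fell in DKO livers (-0.97 ± 0.13, edgeR adjusted p = 8.71e-06). The Nfix and Nr5a2 calls in DKO livers were lost with library totals, at -0.25 and -0.20.

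Zhx2 and Zbtb20 encode repressors known to silence Afp in the mouse liver after birth. Zhx2 stood at 28.8 and 25.2 CPM in KO livers, against 56.0 and 41.8 CPM in FF livers (-0.85 ± 0.16, edgeR adjusted p = 0.00166). It stood at 31.3 and 29.95 CPM in DKO livers, against 43.4 and 48.1 CPM in p53KO livers (-0.58 ± 0.15, edgeR adjusted p = 0.00402), a value that turned to 0.19 with library totals. In DKO TAM livers it stood at 31.9 and 31.2 CPM, against 41.1 and 37.6 CPM in p53KO TAM livers, and did not pass (-0.32 ± 0.15, edgeR adjusted p = 0.154, 0.026 with library totals). On the TMM scale each pair of groups was thus free of overlap, with the deleted libraries lower. As a share of all counts both DKO libraries stood above both p53KO libraries for Zhx2, at 0.004388% and 0.004225% against 0.003578% and 0.003987%. Zbtb20 was at -0.36 ± 0.15 in KO livers (edgeR adjusted p = 0.133), -0.80 ± 0.15 in DKO livers (edgeR adjusted p = 0.000336) and -0.62 ± 0.15 in DKO TAM livers (edgeR adjusted p = 0.00914). Its calls were lost with library totals (-0.033 in DKO and -0.27 in DKO TAM livers), and that of DKO TAM also without p53KO TAM replicate 2 (-0.42) or DKO TAM replicate 1 (-0.56).

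Other genes of the fetal liver that are silenced after birth made a list of 26, of which 21 passed the filter on low counts. In DKO livers 19 of these were called higher and none lower (median 2.54), in KO livers 2 higher (0.67) and in DKO TAM livers 5 higher (0.61). With library totals alone 21, 6 and 6 were called higher in DKO, KO and DKO TAM livers. The KO count was 4 with DESeq2, with no expression filter and with the block on replicate numbers. With only the libraries compared, 2 were called higher and 1 lower in DKO TAM livers. Of all genes tested, 25.7%, 6.92% and 8.61% were called higher in DKO, KO and DKO TAM livers. A gene that passed the filter only through the DKO libraries had to differ, so the count describes the list and supports nothing beyond it. Igf2, the fetal insulin-like growth factor, stood at 84.5 and 59.0 CPM in DKO livers, against 0.683 and 1.501 CPM in p53KO livers (6.07 ± 0.45, edgeR adjusted p = 2.79e-07). Pkm, the glycolytic pyruvate kinase replaced by another gene in adult liver, averaged 56.8 ± 5.80 CPM in DKO livers and 10.2 ± 0.51 CPM in p53KO livers (SD, n = 2 each; 2.47 ± 0.20, edgeR adjusted p = 4.9e-08). Lpl, lipoprotein lipase, rose in KO livers (2.53 ± 0.21, edgeR adjusted p = 2.86e-06) and in DKO livers (2.03 ± 0.20, edgeR adjusted p = 1.4e-06). The other gene called in KO livers was Scd2, a fatty acid desaturase (1.31 ± 0.29, edgeR adjusted p = 0.00725); leaving out FF replicate 2 (1.27) or KO replicate 1 (0.77) ended that call. Igdcc4, a cell surface protein of the immunoglobulin superfamily, had the smallest p in DKO TAM livers, with 14.3 ± 8.52 CPM there and 0.541 ± 0.470 CPM in p53KO TAM livers (SD, n = 2 each; 4.53 ± 0.61, edgeR adjusted p = 0.000213). Its value was 5.97 without p53KO TAM replicate 1 and 3.75 without DKO TAM replicate 2. Peg3, an imprinted gene, was at 1.73 ± 0.29 (edgeR adjusted p = 0.00311) and Cd24a, a surface protein of immature cells, at 1.65 ± 0.35 (edgeR adjusted p = 0.00840) in the same comparison. The Peg3 call was lost when only the libraries compared were fitted, and the Cd24a call without p53KO TAM replicate 2 (1.34). Without that replicate 2 genes of the list were called in DKO TAM livers, and without p53KO TAM replicate 1, 3 genes.

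The 30 other abundant plasma protein genes, all tested, fell with Alb in DKO livers, where 28 were called lower and none higher (median -1.43). In KO livers 8 were called lower and none higher (-0.36), and in DKO TAM livers 19 lower and 1, the fibrinogen chain gene Fga, higher (-0.68; Fga 0.60, edgeR adjusted p = 0.0347). The Fga call was lost with the block on replicate numbers (0.57), with only the libraries compared, and without p53KO TAM replicate 1 (0.71), p53KO TAM replicate 2 (0.50) or DKO TAM replicate 2 (0.25). Of all genes tested, 25.7%, 7.88% and 10.1% were called lower in DKO, KO and DKO TAM livers, and 8.61% higher in DKO TAM livers. With library totals the splits of the list, lower and higher, were 18 and 0 in DKO, 6 and 1 in KO and 10 and 3 in DKO TAM livers. In all 3 comparisons fewer genes of the list were called lower whenever any 1 library of the comparison was left out. Serpina3k, a serine protease inhibitor, averaged 1947 ± 169 CPM in KO livers and 7341 ± 458.4 CPM in FF livers, 399.4 ± 28.5 CPM in DKO livers and 7435 ± 803 CPM in p53KO livers, and 1513 ± 405 CPM in DKO TAM livers and 4410 ± 32.5 CPM in p53KO TAM livers (SD, n = 2 each). Its edgeR adjusted p was 3.64e-06 in KO, 2.24e-10 in DKO and 2.22e-05 in DKO TAM livers. C3, the central complement protein, fell in KO livers (-1.41 ± 0.18, edgeR adjusted p = 7.06e-05) and in DKO TAM livers (-1.87 ± 0.19, edgeR adjusted p = 4.16e-06). It fell in DKO livers as well (-1.33 ± 0.18, edgeR adjusted p = 1.49e-05). Fetub, a fetuin, fell in DKO livers (-2.99 ± 0.14, edgeR adjusted p = 1.68e-10) and DKO TAM livers (-1.12 ± 0.13, edgeR adjusted p = 1.68e-05). Apoa1, the main protein of high-density lipoprotein, changed by -1.03 ± 0.17 in KO, -1.92 ± 0.18 in DKO and -0.99 ± 0.17 in DKO TAM livers (edgeR adjusted p = 0.000731, 1.99e-07 and 0.000827). Plg, plasminogen, changed by -0.48 ± 0.14 in KO, -1.92 ± 0.14 in DKO and -0.845 ± 0.14 in DKO TAM livers (edgeR adjusted p = 0.0282, 2.08e-08 and 0.000559). Afm in KO livers, at -1.62, lay beyond C3 and short of Serpina3k.

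Receptors of the family's proteins and enzymes of their ligands made a list of 18, of which 13 were tested. In KO livers 3 were called lower and none higher, in DKO livers 8 lower and 1 higher, and in DKO TAM livers 4 lower and none higher (medians -0.29, -0.74 and -0.33). Of all genes tested, 7.88%, 25.7% and 10.1% were called lower in KO, DKO and DKO TAM livers, and 25.7% higher in DKO livers. With library totals the DKO split was 2 lower and 4 higher, and the DKO TAM split 3 lower and 1 higher. Cyp2r1, the main vitamin D 25-hydroxylase, whose product Gc carries, stood at 13.04 and 12.1 CPM in KO livers, against 25.1 and 38.5 CPM in FF livers. It stood at 9.33 and 8.39 CPM in DKO livers, against 29.9 and 40.8 CPM in p53KO livers, and at 11.8 and 14.8 CPM in DKO TAM livers, against 31.9 and 29.2 CPM in p53KO TAM livers. All 6 deleted libraries were below all 6 controls, with log2 fold changes of -1.35 ± 0.22, -1.99 ± 0.21 and -1.21 ± 0.21 (edgeR adjusted p = 0.000655, 1.02e-06 and 0.000814). Cyp27a1, a sterol hydroxylase that can also act on vitamin D, changed by -1.17 ± 0.14 in KO, -2.08 ± 0.15 in DKO and -0.54 ± 0.14 in DKO TAM livers (edgeR adjusted p = 3.4e-05, 1.05e-08 and 0.0131). The last of these calls was lost with library totals (-0.19) and without p53KO TAM replicate 2 (-0.38) or DKO TAM replicate 2 (-0.46). Gsn, gelsolin, which severs actin in plasma as Gc binds its monomers, was the gene called higher in DKO livers (1.31 ± 0.19, edgeR adjusted p = 2.44e-05). Among DKO TAM livers Stab2, a scavenger receptor of liver endothelium, and Dab2, an endocytic adaptor, fell by 0.91 ± 0.15 and 0.86 ± 0.14 on the log2 scale (edgeR adjusted p = 0.000593 and 0.000447). Stab2 was also called lower in DKO livers (-0.49 ± 0.15, edgeR adjusted p = 0.0114). Its mean share of all counts was 0.0212% there and 0.0175% in p53KO livers.

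Markers of liver cell types moved along with the family. Of 8 hepatocyte markers outside the family 7 were tested, and all 7 were called lower in KO and in DKO livers and 4 in DKO TAM livers. Among all genes tested, 7.88%, 25.7% and 10.1% were called lower in KO, DKO and DKO TAM livers. The summed level of the hepatocyte markers was 14590 to 16350 CPM in KO livers, against 26170 to 30600 CPM in FF livers. It was 8630 to 8697 CPM in DKO livers, against 34690 to 35210 CPM in p53KO livers, and 13060 to 13940 CPM in DKO TAM livers, against 22220 to 23430 CPM in p53KO TAM livers. The marker left untested, the urea cycle gene Ass1, had too few counts to pass the filter. Whether its reads were lost in mapping or counting was not tested. The hepatocyte markers were counted in every group, at a lower summed level in each deleted group than in its control.

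In DKO livers, where Afp was highest, markers of several other cell types were higher as well. Of all genes tested there, 25.7% were called higher and 25.7% lower. Cholangiocyte or progenitor markers summed to 278.1 to 309.4 CPM in DKO livers, against 68.0 to 69.0 CPM in p53KO livers, with 6 of 7 tested called higher. Stellate or fibroblast markers summed to 1286 to 1337 CPM, against 360.4 to 370.0 CPM, with 8 of 8 called higher. Macrophage markers summed to 765.9 to 787.0 CPM, against 361.0 to 381.7 CPM, with 7 of 8 called higher. Endothelial markers had 2 of 8 called higher and 2 lower, and sums of 512.1 to 616.8 CPM against 689.4 to 713.3 CPM. Of 4 lymphocyte markers tested Cd8a was called higher, of 4 neutrophil markers S100a9 and Csf3r, and of 4 erythroid precursor markers Tfrc higher and Alas2 and Klf1 lower. These lists summed to 8.39 to 10.1, 20.4 to 29.6 and 162.9 to 208.6 CPM in DKO livers, against 5.15 to 7.17, 6.44 to 11.3 and 284.2 to 309.7 CPM in p53KO livers. Their part in the DKO values of the family was not tested.

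In KO and DKO TAM livers the shares of all genes called higher were 6.92% and 8.61%, and those called lower 7.88% and 10.1%. The marker counts of these comparisons are to be read against these shares. In KO livers none of 7 cholangiocyte or progenitor markers was called, and 1 of 8 was called higher in each of the macrophage (Timd4), endothelial (Lyve1) and stellate (Acta2) lists. Among DKO TAM livers the cholangiocyte or progenitor marker Epcam and the macrophage marker Vsig4 were called higher, and the endothelial markers Kdr, Stab2 and Cdh5 and the stellate marker Acta2 lower. The Epcam call (1.69) was lost with limma-voom, with only the libraries compared, and without p53KO TAM replicate 1 (1.86), p53KO TAM replicate 2 (1.58) or DKO TAM replicate 1 (0.88). Macrophage sums were 479.3 to 524.4 CPM in KO livers, against 408.1 to 414.9 CPM in FF livers, and 571.7 to 575.2 CPM in DKO TAM livers, against 450.1 to 489.8 CPM in p53KO TAM livers. Endothelial sums were 600.2 to 703.2 CPM in KO livers, against 671.2 to 756.1 CPM in FF livers, and 464.8 to 491.8 CPM in DKO TAM livers, against 725.7 to 765.9 CPM in p53KO TAM livers. None of 4 tested lymphocyte, neutrophil or erythroid precursor markers was called in either comparison. Markers at 0 in both libraries of a group included Cd3d (lymphocyte) in p53KO, Elane (neutrophil) in KO and FF, Mpo (neutrophil) in p53KO, and Slc4a1 (erythroid precursor) in p53KO. The part of cell makeup in the Alb and Afm values was not tested.

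Around the family, 31 other genes lie within 1 Mb of Alb, Afp and Afm or of Gc, and 20 were tested. In KO livers 2 of them were called higher and 3 lower, in DKO livers 6 higher and 6 lower, and in DKO TAM livers 3 higher and 2 lower, with medians of 0.085, -0.098 and 0.072. In DKO livers 25.7% of all genes tested were called in each direction, so the DKO counts are near the background. The shares of all genes called higher and lower were 6.92% and 7.88% in KO and 8.61% and 10.1% in DKO TAM livers. The neighbour beyond Afm, 5830473C10Rik, 7.7 kb from its end, was lower in all 3 comparisons, as Alb and Afm were. It stood at 49.3 and 37.9 CPM in KO livers, against 68.2 and 65.6 CPM in FF livers. It stood at 10.3 and 8.64 CPM in DKO livers, against 76.1 and 62.4 CPM in p53KO livers, and at 42.4 and 28.2 CPM in DKO TAM livers, against 75.9 and 83.5 CPM in p53KO TAM livers. No groups overlapped. The log2 fold changes were -0.62 ± 0.18, -2.87 ± 0.20 and -1.17 ± 0.18 (edgeR adjusted p = 0.0336, 1.33e-08 and 0.000352), and the KO call was lost with library totals (-0.36), without either FF replicate (-0.59 and -0.65) and without KO replicate 2 (-0.46).

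On the other side the nearest gene, Gm9958, lies 92.4 kb before Alb and has too few counts to read, 8 to 23 summed over a group. Slc4a4, a bicarbonate transporter and the nearest gene beyond Gc, passed in no comparison with TMM scaling, at 0.078 ± 0.14 in KO, -0.11 ± 0.14 in DKO and 0.33 ± 0.14 in DKO TAM livers (edgeR adjusted p = 0.774, 0.525 and 0.116). With library totals it passed in DKO livers (0.65, edgeR adjusted p = 0.000693) and in DKO TAM livers (0.68, edgeR adjusted p = 0.00184). Npffr2, on the other side of Gc, had at most 1 count in a group. Afp thus rose in DKO livers between Alb and Afm, which both fell.

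**Figure D5:**
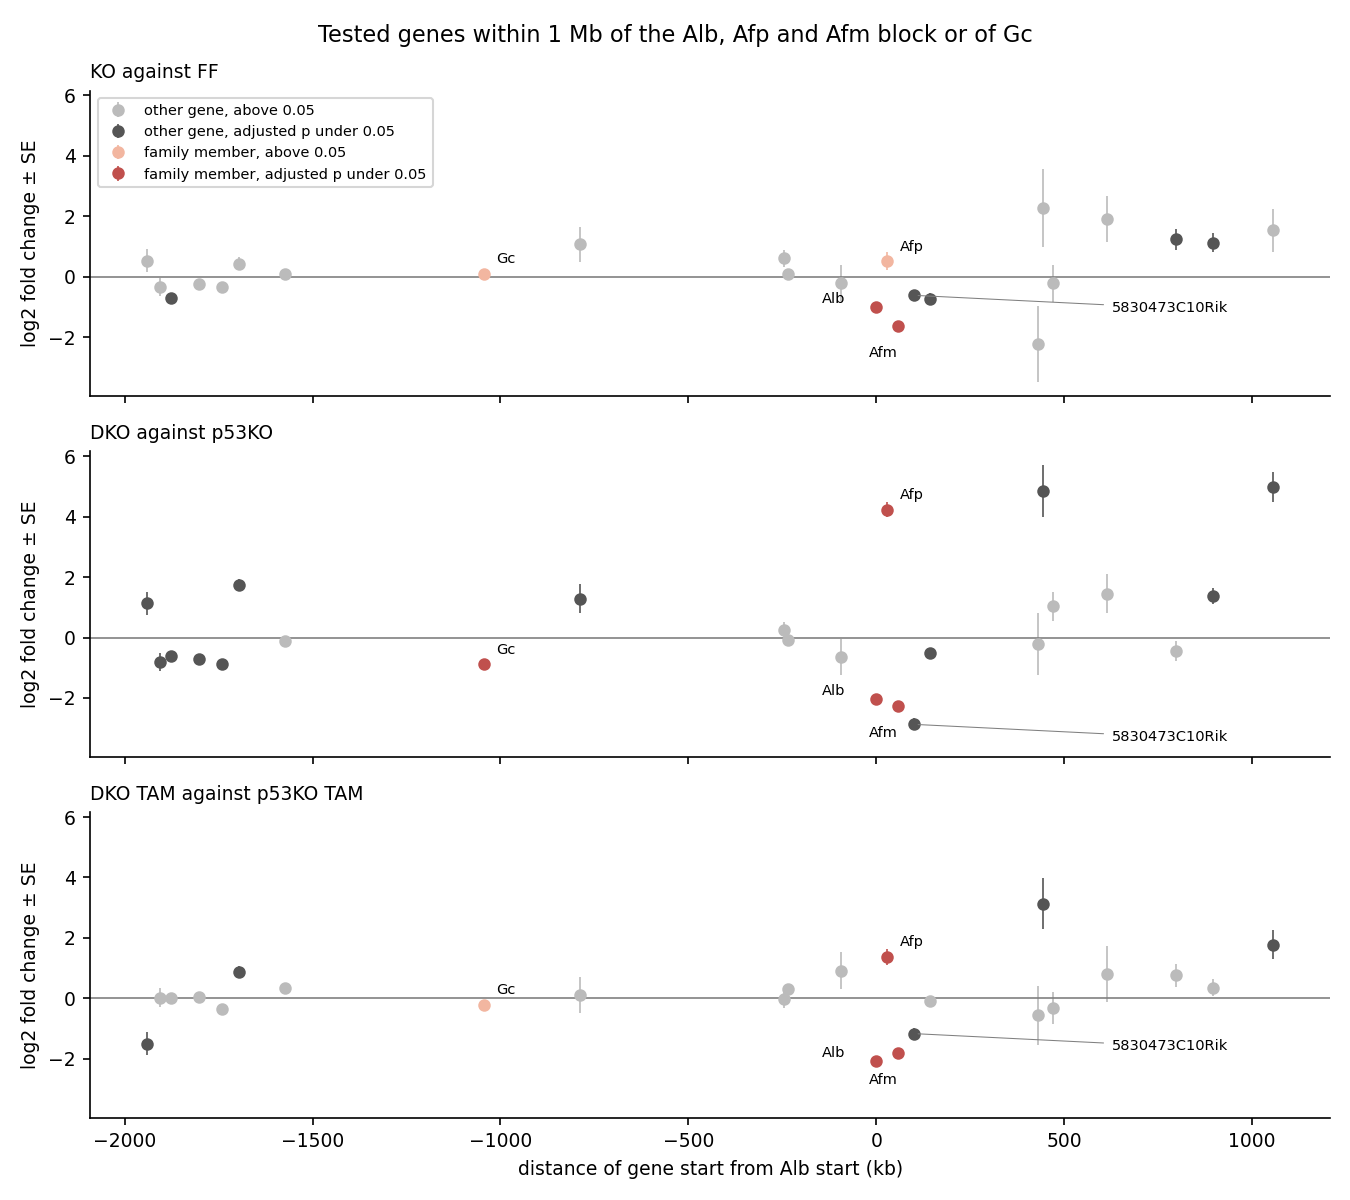
Log2 fold change with its standard error (y axis) of the tested genes within 1 Mb of the Alb, Afp and Afm block or of Gc, by distance of the gene start from the start of Alb (x axis, kb), in each comparison; red points are members, grey points other genes, and dark shades an adjusted p under 0.05. In DKO livers Afp at 4.24 lies between Alb at -2.04 and Afm at -2.26, and 5830473C10Rik beyond Afm is at -2.87.

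The genes whose pattern was most like that of each member were found over the 12 libraries among 10174 genes that averaged 5 CPM or more, by the root mean squared difference of centred log2 CPM. For Alb they were Amdhd1, Cyp2d26, Hrsp12, Phyhd1 and Masp1 (0.20 to 0.29). For Afm they were Gckr, Slco2b1, Vegfa, Prr16 and Pccb (0.19 to 0.28), and for Gc Igsf5, Lamp2, D2hgdh, Gpc4 and C1galt1c1 (0.11 to 0.12). For Afp they were Cd63, Trim59, Aspm, Unc5b and Spag5 (0.40 to 0.47), farther from it than those of the adult members. Trim59 averaged 24.15 CPM in DKO livers and at most 3.315 CPM in any other group, and Spag5 34.06 and 4.64 CPM. These 2 genes reached an average of 5 CPM only through DKO livers, where Afp was highest, so their likeness to it follows in part from that limit. Alb and Afm differed by 0.40, a distance within which 0.541% of genes lay around Alb, whereas Alb and Afp differed by 2.22, beyond 98.9% of genes. Aspm, a spindle protein of dividing cells, averaged 104.3 ± 3.34 CPM in DKO livers and 5.90 ± 1.07 CPM in p53KO livers (SD, n = 2 each). It averaged 18.1 ± 1.54 CPM in DKO TAM livers and 4.94 ± 0.39 CPM in p53KO TAM livers. In KO livers it averaged 14.2 ± 3.45 CPM, against 6.38 ± 1.21 CPM in FF livers. Aspm was picked for its likeness to Afp in these libraries, so a direction shared with Afp follows from that choice.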

How the data were processed

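Whole liver RNA was sequenced in 12 libraries, 2 per group, made from total RNA with a stranded kit, per the labels' protocols. The authors deposited unnormalised counts per gene; per the submitters' processing notes CASAVA 1.82, HISAT2 and featureCounts were used with mm10 (GRCm38). The file headers of 4 files name featureCounts 1.6.4, with no strand option, and the other 8 name no program; reads of overlapping or near-identical genes may thus be shared or lost. No library was left out.

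From these counts, edgeR 4.0.16 in R 4.3.3 was run on all 12 libraries in a model of group means with no covariate: filterByExpr with a minimum count of 10 (13693 of 23420 genes kept), TMM scaling, robust quasi-likelihood F tests and Benjamini-Hochberg adjustment over all genes tested. With 2 libraries per group the spread was estimated over all 6 groups (6 residual degrees of freedom). Library totals of 4939408 to 8776369 counts set the precision. Ratios within a library had 0.5 counts added. The fitting script was tested on simulated counts. Alternatives were other scalings and filters, DESeq2 1.42.0, limma 3.58.1, a block on replicate numbers, fits of only the libraries compared, a stricter threshold and leaving out each library.

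Named genes were the 4 members, Polr2m and Trp53, up to 4 genes of a list per comparison with the smallest p, the nearest neighbours and the 5 most similar patterns per member; Aspm among these, and Zhx2 and Zbtb20 in every comparison, Trp53 beyond p53KO against FF, Gata6, Fga and the markers named, were picked out after values were seen. The members and lists were chosen with earlier results of these data known. Ly6g and Hbb-bt of the marker lists had no match by symbol.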

Additional observations from a re-analysis of the deposited data

Results flagged for a closer look

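The size of the change differed between DKO and KO livers for all 4 members by the interaction test of edgeR: log2 differences of 3.72 ± 0.41 for Afp (adjusted p = 2.46e-05), -1.02 ± 0.24 for Alb (0.00683), -0.98 ± 0.21 for Gc (0.00377) and -0.65 ± 0.21 for Afm (0.0367). Between DKO and DKO TAM livers it differed for Afp, by 2.85 ± 0.40 (edgeR adjusted p = 9.42e-05), and for Gc, by -0.67 ± 0.21 (edgeR adjusted p = 0.0283). DKO and KO livers differ in p53 status and in age, and DKO and DKO TAM livers in the Cre allele, in tamoxifen and in the time since deletion; within each pair of experiments these cannot be told apart. No group has the 4 libraries that a check for single outlying libraries needs.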

How the results depend on the processing

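In the 3 main comparisons Alb and Afm stayed lower and called, and Afp stayed higher and called in DKO and DKO TAM livers, under every alternative run. Library totals, alone or without Alb, moved the median of all genes to 0.28 and 0.25 in KO, 0.78 and 0.72 in DKO, and 0.36 and 0.29 in DKO TAM livers, and upper quartile scaling to 0.23 in DKO livers. Gc was then -0.12 and -0.17 in DKO and turned to 0.13 and 0.066 in DKO TAM livers; Polr2m turned to 0.068 and 0.016 and Zhx2 to 0.19 and 0.14 in DKO livers, Zhx2 to 0.026 in DKO TAM livers with totals alone, and Slc4a4 to 0.65 and 0.60 (0.10 with upper quartile) in DKO livers. DKO minus KO differences became -0.50 and -0.52 for Alb, -0.13 and -0.15 for Afm (upper quartile -0.45), and -0.47 and -0.48 for Gc; DKO minus DKO TAM for Gc became -0.25 and -0.24 (upper quartile -0.48, only libraries compared -0.64). Afm in p53KO against FF turned to -0.062 and -0.056 (upper quartile -0.041).

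Genes called higher and lower with library totals were 2744 and 550 in KO (main 947 and 1079), 8823 and 959 in DKO (main 3516 and 3525; upper quartile 4662 and 2435), and 4346 and 586 in DKO TAM livers (main 1179 and 1380). Totals thus called 3294 genes in KO and 4932 in DKO TAM livers, 4158 with Alb left out. An adjusted p under 0.01 left 960 genes in KO, 1201 in DKO TAM, 1545 for DKO minus KO, 2069 for DKO minus DKO TAM and 37 for p53KO against FF, where no filter gave 190 and DESeq2 182 (main 118). It also ended the calls of Afm in DKO minus KO (-0.65) and Gc in DKO minus DKO TAM (-0.67).

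Leaving out 1 library gave 1087 to 1285 genes in KO, 1188 to 1952 in DKO TAM, 1970 to 2751 for DKO minus KO and 30 to 105 for p53KO against FF. Ranges were -0.003 to 0.18 for Gc in KO, -0.016 to 0.17 for Slc4a4 in KO and -0.25 to 0.009 in DKO, -0.14 to 0.20 for Afm and -0.15 to 0.073 for Gc in p53KO against FF, -0.83 to -0.50 for Afm in DKO minus KO, and -0.10 to 0.19 for Alb and -0.78 to -0.57 for Gc in DKO minus DKO TAM.

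Libraries were paired by the replicate numbers of the sample descriptions, 1 and 2 in every group, by which the DKO libraries titled 2 and 3 are 1 and 2. The deviations of same-numbered libraries had correlations of 0.089, -0.053 and -0.012 in KO, DKO and DKO TAM. Each rests on the difference between the 2 libraries of a group, so it cannot show whether same-numbered libraries share a litter or a day. With the replicate block, Gc in DKO minus DKO TAM was -0.66 (edgeR adjusted p = 0.0589); no other member lost or gained a call. The causes were not tested. Depth limits Afp in the controls, at 15 to 43 counts.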
